A study of Mus musculus with 18 samples.

Results

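The TNF superfamily is a family of ligands, most of them trimers on the cell surface, and of the receptors they bind. Its members here were chosen by name: every row of the gene count table whose symbol follows the Tnfsf or Tnfrsf numbering, with Fas, Fasl, Lta and Ltb added. The rule found 32 of the 15596 symbols in the table, 14 ligands and 18 receptors, and used no measured value. Tnfrsf13c, Tnfrsf17, Tnfrsf19 and the antisense gene Tnfsf13os also fit the rule in the GENCODE M21 annotation and are not analysed here.

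The study asked what the loss of Mbtps1 does to MC38 cells and to the tumours they form. Mbtps1 encodes site-1 protease, a Golgi enzyme that cuts membrane-bound transcription factors, and MC38 is a mouse colon carcinoma line from the C57BL/6 strain. The 16 RNA libraries fall into 4 groups: cultured MC38 cells labelled Mbtps1 WT (3) or Mbtps1 KD (3), and tumours of MC38 cells labelled Mbtps1 WT (5) or Mbtps1 KD (5), grown in wild-type C57BL/6 mice. The series' text calls the altered cultured cells knockout and the altered implanted cells knockdown, while the sample labels call both KD; the agent used, the number of clones, the age and sex of the mice and any other treatment are not given in the sources used here. Control and knockdown are used below for WT and KD. A further pair of libraries counts guides of a CRISPR library in pooled MC38 cells from C57BL/6 wild-type hosts and from hosts lacking Rag1, which have no mature T or B cells.

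As background, ligand binding clusters the receptors. Receptors with a death domain (Fas, Tnfrsf1a, Tnfrsf10b, Tnfrsf21 and Tnfrsf25) can recruit adaptors that activate caspases, while others bind TRAF adaptors and signal to NF-kappa-B. Decoy receptors bind ligand without passing on a death signal. In tumours the family is known for killing by T and natural killer (NK) cells and for the costimulation of lymphocytes.

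Mbtps1 itself lay at 118 to 135 CPM in control cells and at 34.8 to 37.0 in knockdown cells, where CPM is a gene's count relative to all counts of its library. In the tumours it lay at 110.3 to 130 CPM in controls and 41.4 to 57.1 with knockdown, so the labels and the targeted gene went the same way in every library. Library totals were 14240353 to 15515405 counts in the cells and 19630410 to 32655739 in the tumours. No 2 replicates agreed within sampling noise. Knockdown tumours 3 and 5 stood apart from knockdown tumours 1, 2 and 4: chi-square per degree of freedom over gene counts was 50.2 to 123.9 for the 6 pairs across that split and 16.3 to 36.4 for the 4 pairs within it. The labels name no difference between these libraries, and the tumour results are also given below without both. The labels do not tie tumours to separate animals or cell libraries to separate cultures, so p-values measure the spread between these samples, which may be partly technical. In cells the epithelial markers Epcam and Cdh1, and Krt20, were listed at 0, and Krt8 was the detected epithelial marker of the list, at 1.26 to 3.76 CPM in control cells and 0 in every tumour.

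All 32 members had counts in every tumour library. In the cultured cells, 17 had counts in all 6 libraries, and 15 were listed at 0 in all 6: the ligands Fasl, Lta, Ltb, Tnfsf4, Tnfsf8, Tnfsf11, Tnfsf14, Tnfsf15 and Tnfsf18 and the receptors Tnfrsf8, Tnfrsf11a, Tnfrsf11b, Tnfrsf13b, Tnfrsf21 and Tnfrsf25. No gene of the table had a sum over the 6 cell libraries between 0 and 13, so a row listed at 0 may hold reads below a minimum. Summed over the 14 ligands, control cells held 17.9 to 23.3 CPM and control tumours 71.6 to 93.8 CPM. The 18 receptors summed to 362 to 388 CPM in control cells and 507 to 559.8 in control tumours. Cells and tumours differ in which cells they hold, and these sums are levels without a test.

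Per length (CPM divided by kilobases of exon), the order was led by Tnfrsf12a and Tnfrsf1a in culture and in tumours. Tnfrsf12a, the receptor of the ligand Tnfsf12, was highest, at 57.6 ± 4.91 (SD, n = 3) in control cells and 74.6 ± 11.4 (SD, n = 5) in control tumours. Tnfrsf1a, the death-domain receptor of TNF, came next at 36.1 ± 1.90 and 50.3 ± 1.13, and Tnfrsf1b, the TNF receptor without a death domain, followed at 9.57 ± 2.59 and 33.0 ± 3.62. In control cells Tnfrsf1b was not separated from Tnfrsf22 (9.44 ± 0.385), Tnfsf9 (8.64 ± 0.853), Tnfrsf23 (7.83 ± 0.346) or Tnfrsf10b (6.56 ± 0.759). Their ranges over libraries overlapped with that of Tnfrsf1b. In knockdown cells Tnfrsf22 stood above Tnfrsf1b, at 11.3 ± 0.829 against 9.08 ± 0.979, with ranges that did not overlap. The highest ligand in tumours was Tnfsf12, at 16.3 ± 1.19 per kilobase in controls and 16.8 ± 0.786 with knockdown, but 46.8% of its 50-base stretches also lie in the read-through gene Tnfsfm13, so its reads could be split by the counting.

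**Figure D1:**
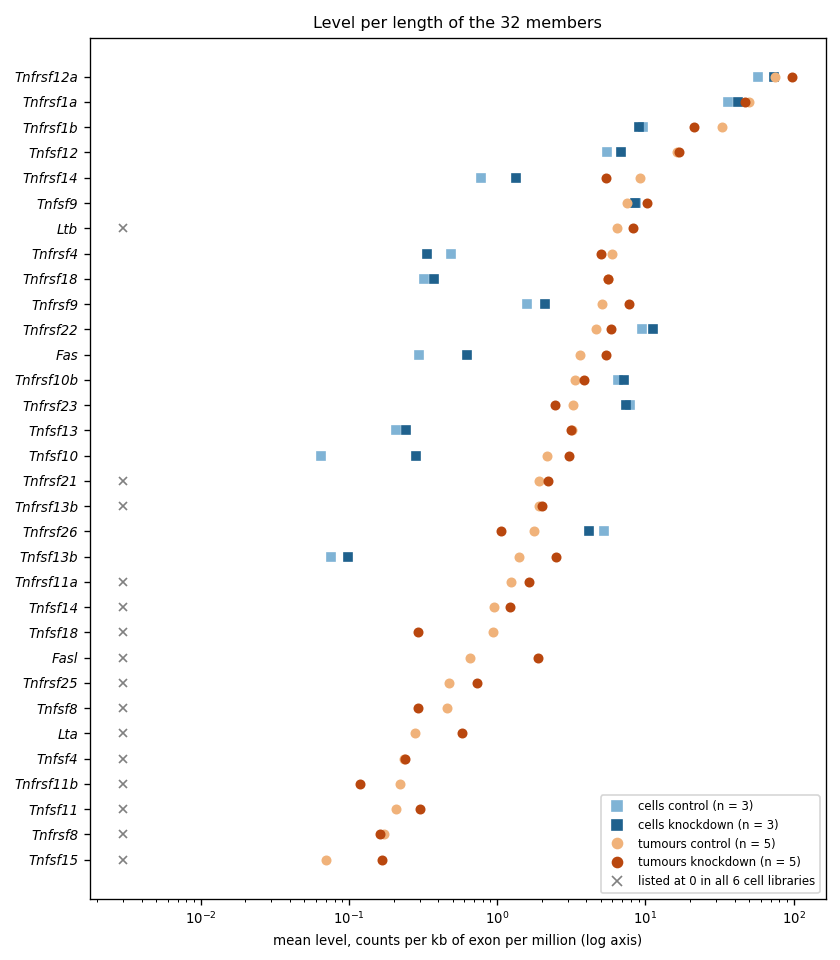
Mean level per length of the 32 members in the 4 groups, in CPM per kilobase of exon on a log axis, with crosses for members listed at 0 in all 6 cell libraries. Tnfrsf12a, Tnfrsf1a and Tnfrsf1b lead in control tumours at 74.6, 50.3 and 33.0, and 15 members have a cross.

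The promoters of 5 members on which the results below turn are printed here, so that the letters around each start site can be set beside the values. Fasl and Tnfsf18 had the highest and the lowest fold change in tumours, Tnfsf10 passed the test in both settings, and Fas and Tnfrsf1b moved in opposite directions in the tumours and had the highest guide ratios in the screen. Each runs 5′ to 3′ on the gene's strand from 250 bases before the RefSeq start to 50 after it (build GRCm38.p6). Capitals mark matches to 3 motifs searched on both strands: TTCNNNGAA (the interferon gamma activated site), GAAANNGAA (the core of the interferon-stimulated response element) and the NF-kappa-B consensus. Positions give a match's first base as printed, a promoter with several matches of a motif counts once, and matches of different motifs may overlap.
Fasl, ligand, chr1:161788446-161788745, minus strand: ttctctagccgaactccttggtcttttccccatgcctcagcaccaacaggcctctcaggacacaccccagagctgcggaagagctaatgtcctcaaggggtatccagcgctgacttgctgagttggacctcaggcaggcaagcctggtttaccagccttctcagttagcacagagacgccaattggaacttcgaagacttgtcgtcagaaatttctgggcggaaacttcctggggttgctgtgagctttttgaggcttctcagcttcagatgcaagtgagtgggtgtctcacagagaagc
Tnfsf18, ligand, chr1:161494407-161494706, plus strand: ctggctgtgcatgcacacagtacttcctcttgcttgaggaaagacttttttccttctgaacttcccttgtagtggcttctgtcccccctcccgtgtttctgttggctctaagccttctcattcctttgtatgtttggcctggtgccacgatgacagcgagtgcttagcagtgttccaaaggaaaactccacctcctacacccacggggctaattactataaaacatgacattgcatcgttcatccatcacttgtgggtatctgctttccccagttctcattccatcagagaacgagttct
Tnfsf10, ligand, chr3:27316827-27317126, plus strand: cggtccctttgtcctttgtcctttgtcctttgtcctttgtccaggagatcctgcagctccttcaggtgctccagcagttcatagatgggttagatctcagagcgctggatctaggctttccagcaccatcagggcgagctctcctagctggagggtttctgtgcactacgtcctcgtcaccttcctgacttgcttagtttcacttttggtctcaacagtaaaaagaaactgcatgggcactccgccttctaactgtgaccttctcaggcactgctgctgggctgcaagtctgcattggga
Fas, receptor, chr19:34290409-34290708, plus strand: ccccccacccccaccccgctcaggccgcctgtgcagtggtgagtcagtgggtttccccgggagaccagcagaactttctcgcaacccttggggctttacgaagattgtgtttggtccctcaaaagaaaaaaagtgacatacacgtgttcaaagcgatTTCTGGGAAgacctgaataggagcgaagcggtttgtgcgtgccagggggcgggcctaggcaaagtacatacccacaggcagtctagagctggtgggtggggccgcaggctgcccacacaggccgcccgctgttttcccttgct
Tnfrsf1b, receptor, chr4:145246821-145247120, minus strand: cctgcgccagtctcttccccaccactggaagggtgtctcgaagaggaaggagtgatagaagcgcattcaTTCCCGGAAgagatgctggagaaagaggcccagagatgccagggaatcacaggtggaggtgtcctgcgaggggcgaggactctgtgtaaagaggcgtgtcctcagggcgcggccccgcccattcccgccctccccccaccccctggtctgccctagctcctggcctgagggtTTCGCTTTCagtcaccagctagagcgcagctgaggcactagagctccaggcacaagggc
Fas holds a TTCNNNGAA match that begins at -93 from the start site, and Tnfrsf1b holds TTCNNNGAA at -181 and GAAANNGAA at -9. None of the 3 motifs matched in the windows of Fasl, Tnfsf10 and Tnfsf18, which says only that these letters are not in these 300 bases. Of the 28 promoters of 25 members in the RefSeq table, 8 held TTCNNNGAA, 5 held GAAANNGAA and 4 held the NF-kappa-B consensus. Over all 32851 mouse promoters of that length, the shares with a match were 8.30%, 8.56% and 8.46%. A match is a description of the sequence and not evidence of binding.

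Knockdown was first compared with control in cultured cells, where most leukocyte genes were listed at 0. Tnfsf10 (TRAIL), a ligand that can trigger apoptosis through Tnfrsf10b, was the member that rose. Of the 32 members, 14 had enough counts to be tested; 1 was higher, 0 were lower and 13 did not pass at an adjusted p of 0.05. The share called among all genes tested was 9.33% (3.76% higher and 5.57% lower), so 1 of 14 is near the background and no result about the family. The test was edgeR's quasi-likelihood test with Benjamini-Hochberg adjustment over all genes, here and for every adjusted p below. The median log2 fold change of the 14 was 0.29, and that of all genes 0.01.

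Tnfsf10 was measured at 0.350, 0.462 and 0.211 CPM in the control cells and at 1.66, 2.08 and 0.709 CPM in the knockdown cells. All 3 knockdown values lay above all 3 controls, at low counts. The log2 fold change was 2.07 (SE 0.53, adjusted p = 0.032). The call was lost without control replicate 1, 2 or 3 or knockdown replicate 1 or 2 (log2 1.75 to 2.35, adjusted p 0.066 to 0.126), and a stricter filter on low counts left the gene untested.

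Tested members of the cultured cells that did not pass are given by their values. Fas was at 0.490, 0.792 and 0.562 CPM in control cells and 1.13, 1.88 and 0.838 with knockdown, with all knockdown libraries above the controls (log2 1.03, SE 0.44, adjusted p = 0.16). Tnfrsf1a, Tnfrsf9 and Tnfrsf22 also lay above controls in every knockdown library, at log2 0.22, 0.39 and 0.25, and Tnfrsf26 lay below, at -0.34, with adjusted p of 0.14 to 0.27. In all, 6 of the 14 tested members did not overlap between groups (42.9%), against 31.8% of all genes tested. Among the highest members, Tnfrsf12a was at 102, 120.5 and 112 CPM in controls and 120.3, 120.1 and 187 with knockdown, so that 1 knockdown library stood apart and the groups overlapped. Tnfrsf1b was at 40.8, 43.5 and 25.2 CPM in controls and 33.6, 31.5 and 38.8 with knockdown. Tnfrsf10b, the death receptor for Tnfsf10, was at 31.1 to 39.1 CPM in controls and 35.9 to 40.9 with knockdown. Tnfsf9 lay at 9.90 to 12.6 CPM over all 6 libraries, Tnfsf12 at 6.11 to 13.02 and Tnfrsf23 at 26.7 to 31.8. Lower still were Tnfrsf14, at 0.351 to 2.32 CPM, and Tnfsf13b, at 0.351 to 0.902. Tnfrsf4, Tnfrsf18 and Tnfsf13 had counts but were too low to be tested, at 0.0700 to 0.996 CPM.

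**Figure D2:**
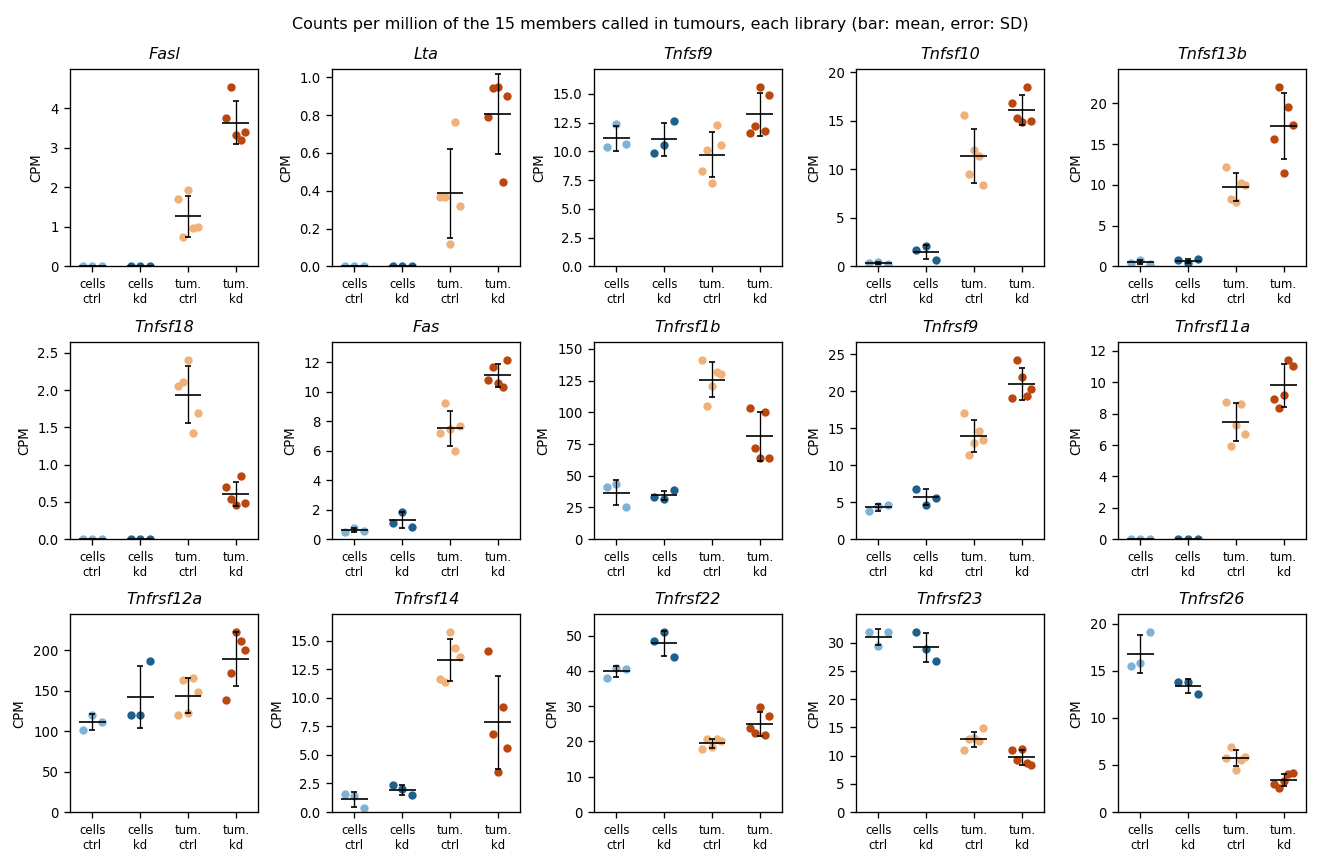
CPM in every library for the 15 members past the threshold in tumours, by group (control and knockdown cells, 3 each; control and knockdown tumours, 5 each); points are libraries, horizontal bars are group means with error bars of 1 SD, and each panel has its own axis from 0. Fasl, Fas, Tnfrsf9 and Tnfrsf22 show every knockdown tumour above every control tumour, and Tnfsf18, Tnfrsf1b and Tnfrsf26 every one below.

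In the tumours more of the family moved, in both directions. The death ligand Fasl, its receptor Fas, the B cell survival factor Tnfsf13b and the T cell costimulatory receptor Tnfrsf9 were higher with knockdown, and the ligand Tnfsf18 and the TNF receptor Tnfrsf1b were lower. Of the 32 members, 30 were tested: 10 were higher, 5 lower and 15 did not pass. Among all genes tested 38.4% were called, 20.1% higher and 18.3% lower, so the members' 15 of 30 lies above a high background, and the excess was not tested. Tnfrsf11b and Tnfsf15 had too few counts for the test. The median log2 fold change of the 30 was 0.20, and that of all genes 0.02. In 7 of the 30 the groups did not overlap (23.3%), against 22.6% of all genes tested. A tumour is a mixture, and in bulk RNA fewer cells of a type and less RNA per cell cannot be told apart.

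Several cell type markers moved with the knockdown tumours. Summed over the list of 7 NK genes, controls held 17.6 to 35.7 CPM and knockdown tumours 57.4 to 86.3, a 3.13-fold higher mean. The 10 measured T cell genes summed to 48.4 to 114 CPM in controls and 115 to 149 with knockdown, 1.82-fold higher. The 6 leukocyte genes gave 433 to 835 against 666 to 916 CPM, and the 8 macrophage genes 2123 to 3597 against 2274 to 3832. The 7 endothelial genes summed to 113 to 154 CPM in controls and 79.7 to 128 with knockdown, and the 8 fibroblast and mural genes to 3597 to 4611 and 2676 to 3448, mean ratios of 0.747 and 0.742. The fibroblast and mural list was also high in the cultured line, at 1069.5 to 1791 CPM in control and 1023.5 to 1235 in knockdown cells, mostly from Col3a1, so its sum in tumours does not measure fibroblasts alone. The endothelial list lay at 0.580 to 1.40 CPM over the cell libraries. No test was run on these sums. Within the lists some genes went against their sum, by mean CPM in control and knockdown tumours. Lower ones included Laptm5 (309 and 268), Cd4 (4.06 and 2.75), Csf1r (219 and 181) and Mrc1 (37.1 and 31.5). Dcn (257 and 289) and Rgs5 (28.2 and 34.3) were higher, and the endothelial gene Pecam1 stayed level (35.5 and 35.7). The 3 regulatory T cell genes were mixed and summed to 4.95 to 9.85 CPM in controls and 7.28 to 10.5 with knockdown. Of these, Foxp3 (3.04 and 2.42) and Ikzf2 (1.82 and 1.38) were lower, and Ctla4 (2.24 and 4.50) was higher. In the cultured cells 9 of 10 T cell genes, 6 of 7 NK genes and 5 of 6 leukocyte genes were listed at 0. The part of these cell types in the tumour results below was not tested, except by the scaling to leukocyte genes given further on.

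Of the 13 ligands tested in tumours, 5 were higher, 1 was lower and 7 did not pass. Fasl, the death ligand of cytotoxic T and NK cells, was at 1.69, 0.734, 1.94, 0.968 and 0.989 CPM in the controls and at 3.74, 4.54, 3.31, 3.20 and 3.39 with knockdown. Every knockdown tumour was above every control, and the log2 fold change was 1.54 (SE 0.25, adjusted p = 7.1e-04). Tnfsf13b (BAFF), which keeps B cells alive, was at 12.2, 8.21, 7.94, 10.2 and 9.92 CPM in controls and 15.7, 22.0, 11.4, 19.5 and 17.4 with knockdown. The groups overlapped in a single knockdown library, replicate 3 (log2 0.84, SE 0.17, adjusted p = 0.0024). Lta, a soluble ligand made by activated lymphocytes, was at 0.366, 0.367, 0.118, 0.764 and 0.318 CPM in controls and 0.790, 0.944, 0.949, 0.444 and 0.900 with knockdown. Control replicate 4 and knockdown replicate 4 lay within the other group's range (log2 1.12, SE 0.40, adjusted p = 0.040).

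Tnfsf10, higher in cultured knockdown cells, was also higher in the tumours. It was at 15.6, 9.54, 12.01, 11.4 and 8.40 CPM in controls and 16.8, 15.3, 14.9, 18.5 and 15.01 with knockdown. Control replicate 1 reached the knockdown range, and the log2 fold change was 0.52 (SE 0.14, adjusted p = 0.012). Tnfsf9, the ligand of Tnfrsf9, was at 8.34, 10.1, 7.27, 12.3 and 10.5 CPM in controls and 11.6, 12.2, 15.6, 11.8 and 14.9 with knockdown. Control replicate 4 overlapped the knockdown group (log2 0.46, SE 0.16, adjusted p = 0.033), and 11.5% of the gene's 50-base stretches are shared with Gm11110.

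Tnfsf18 (GITRL), the ligand of the T cell receptor Tnfrsf18, was the ligand that fell. It was at 2.06, 2.11, 2.41, 1.43 and 1.70 CPM in the controls and 0.707, 0.539, 0.459, 0.843 and 0.491 with knockdown. All knockdown tumours lay below all controls, and the log2 fold change was -1.67 (SE 0.24, adjusted p = 3.5e-04). Tnfsf8 (CD30L) gave log2 -0.66 (SE 0.29, adjusted p = 0.083) at 1.24 to 2.14 CPM in controls and 0.490 to 1.53 with knockdown. The other 6 ligands tested, Ltb, Tnfsf4, Tnfsf11, Tnfsf12, Tnfsf13 and Tnfsf14, did not pass, with log2 fold changes from 0.01 to 0.51. They include TWEAK (Tnfsf12), APRIL (Tnfsf13), LIGHT (Tnfsf14) and RANKL (Tnfsf11). Like Tnfsf12, Tnfsf13 shares sequence with the read-through gene Tnfsfm13, at 57.3% of its 50-base stretches. Tnfsf15 (TL1A), the ligand of Tnfrsf25, was too low to be tested, at 0.102 to 0.395 CPM in controls and 0.204 to 0.831 with knockdown. Ltb, the membrane partner of Lta, was at 15.8, 7.02, 10.1, 9.48 and 6.39 CPM in controls and 13.9, 14.1, 7.66, 15.3 and 11.4 with knockdown. It passed as higher without control replicate 1 (adjusted p = 0.033) and in no other fit that left out 1 library.

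Among the receptors with a death domain, Fas passed the test. It was at 7.19, 9.27, 7.47, 6.01 and 7.66 CPM in the controls and 10.8, 11.7, 10.6, 10.3 and 12.2 with knockdown. Every knockdown tumour was above every control (log2 0.58, SE 0.13, adjusted p = 0.0037). So both the ligand Fasl and its receptor Fas were higher. Tnfrsf1a, the second most abundant member per length, was at 127 to 135 CPM in controls and 113 to 143 with knockdown (log2 -0.08, SE 0.07, adjusted p = 0.39). Tnfrsf10b was at 16.1 to 19.6 and 18.4 to 23.3 CPM (log2 0.20, SE 0.09, adjusted p = 0.097). Tnfrsf21 (DR6) and Tnfrsf25 (DR3, expressed by T cells) gave log2 0.20 and 0.66 with adjusted p of 0.32 and 0.13.

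Receptors without a death domain that bind TRAF adaptors moved both ways. Tnfrsf9 (CD137), which activated T and NK cells carry, was at 17.1, 11.3, 13.03, 14.7 and 13.5 CPM in the controls and 19.1, 24.3, 21.9, 19.4 and 20.3 with knockdown. The groups did not overlap (log2 0.61, SE 0.12, adjusted p = 0.0023). The cultured line also held Tnfrsf9, at 3.78 to 4.56 CPM in control cells and 4.62 to 6.84 in knockdown cells. Tnfrsf11a (RANK), the receptor of Tnfsf11, was at 8.75, 5.96, 7.27, 8.61 and 6.71 CPM in controls and 8.94, 8.36, 9.22, 11.5 and 11.04 with knockdown, overlapping in knockdown replicate 2 (log2 0.41, SE 0.13, adjusted p = 0.029). Tnfrsf12a was at 119.6, 163, 123, 166 and 148 CPM in controls and 139, 172, 222, 212 and 200.2 with knockdown. Its knockdown replicate 1 lay inside the control range (log2 0.41, SE 0.14, adjusted p = 0.037).

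Tnfrsf1b (TNFR2), known from regulatory T cells and myeloid cells, was at 142, 105, 121, 132 and 130.0 CPM in the control tumours and 104, 72.0, 64.4, 101 and 64.2 with knockdown. All knockdown tumours were below all controls, with replicates 1 and 4 closest to them and replicates 3 and 5, the libraries that stood apart, lowest (log2 -0.63, SE 0.14, adjusted p = 0.0035). Per length, Tnfrsf1a exceeded Tnfrsf1b 1.54 ± 0.18-fold in control tumours (SD, n = 5) and 2.30 ± 0.40-fold with knockdown; this ratio was chosen after the values were seen. In cells the same ratio was 3.98 ± 1.2 and 4.67 ± 0.09 (SD, n = 3). Tnfrsf14 (HVEM), the receptor of Tnfsf14, was at 11.7, 11.4, 15.7, 14.4 and 13.5 CPM in controls and 14.1, 6.78, 3.49, 9.23 and 5.64 with knockdown. Knockdown replicate 1 lay at control level and the others below it, with replicates 3 and 5 lowest (log2 -0.76, SE 0.27, adjusted p = 0.042). The lymphocyte receptors Tnfrsf4 (OX40), Tnfrsf8 (CD30), Tnfrsf13b (TACI, on B cells) and Tnfrsf18 (GITR) did not pass, with log2 fold changes from -0.21 to 0.07. Tnfrsf18 shares 18.7% of its 50-base stretches with Gm16008.

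Tnfrsf22, Tnfrsf23 and Tnfrsf26 lie near each other on chromosome 7. Tnfrsf22 and Tnfrsf23 are mouse decoy receptors for Tnfsf10. Tnfrsf22 was at 17.96, 20.5, 18.3, 20.6 and 20.2 CPM in the control tumours and 23.8, 22.3, 29.6, 21.7 and 27.1 with knockdown, without overlap (log2 0.37, SE 0.11, adjusted p = 0.020). Tnfrsf23 went the other way, from 11.04, 12.98, 13.2, 12.5 and 14.8 CPM to 11.01, 9.21, 11.2, 8.74 and 8.26, with overlap (log2 -0.39, SE 0.13, adjusted p = 0.026). Tnfrsf26 was at 5.73, 6.88, 4.50, 5.50 and 5.86 CPM in controls and 2.95, 2.56, 3.34, 3.99 and 4.13 with knockdown, without overlap (log2 -0.73, SE 0.17, adjusted p = 0.0047). The neighbours thus did not move together. Tnfrsf22 and Tnfrsf23 share 17.3% and 18.0% of their 50-base stretches, so reads could be split between them, and their opposite directions are uncertain to that extent. Tnfrsf11b (osteoprotegerin), the decoy for Tnfsf11, was at 0.229 to 1.90 CPM in controls and 0.122 to 0.799 with knockdown, untested.

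**Figure D3:**
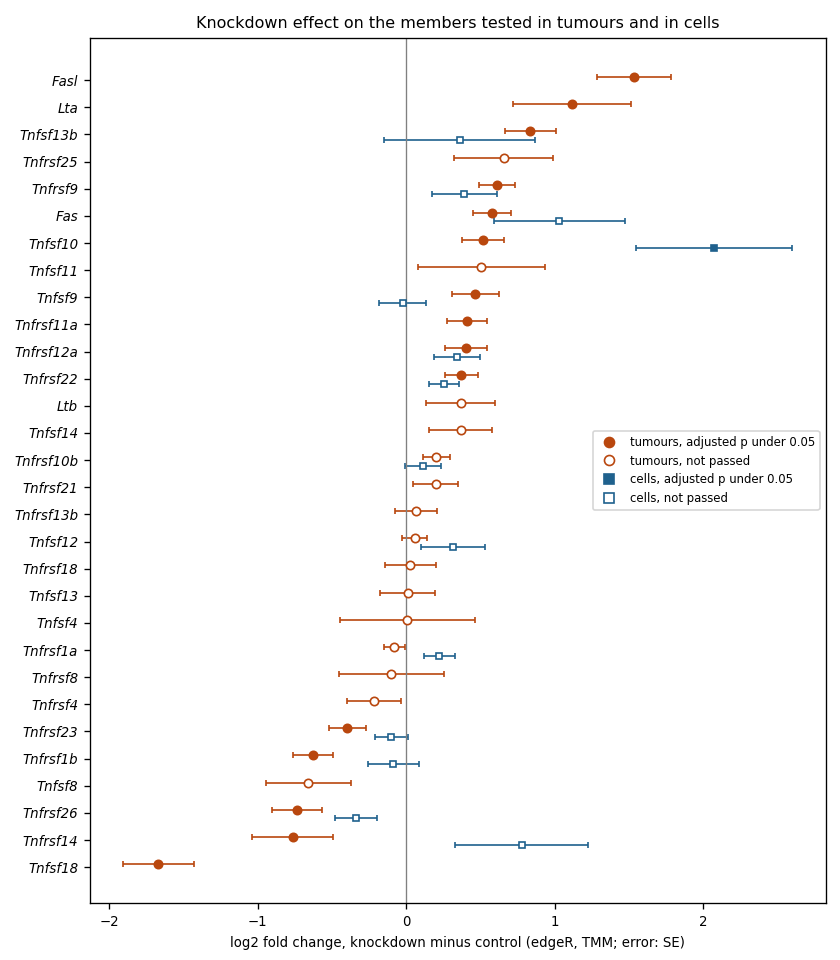
Log2 fold change (knockdown minus control) with its SE for the 30 members tested in tumours (circles) and the 14 tested in cells (squares); filled symbols have an adjusted p under 0.05. The tumour values run from -1.67 for Tnfsf18 to 1.54 for Fasl, and the filled square is Tnfsf10 at 2.07.

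Of the 15 tumour calls, 8 passed in each of the 10 fits that left out 1 library: Fasl, Tnfsf13b, Tnfsf10, Tnfsf18, Fas, Tnfrsf9, Tnfrsf1b and Tnfrsf26. Lta lost its call without control replicate 1, 2, 3 or 5 or knockdown replicate 1, 2, 3 or 5 (log2 0.86 to 1.12, adjusted p 0.052 to 0.089). Tnfrsf14 lost it without control replicate 1, 3, 4 or 5 or knockdown replicate 2, 3 or 5 (log2 -0.81 to -0.57, adjusted p 0.051 to 0.096), and Tnfrsf12a without control replicate 1, 3 or 5 or knockdown replicate 3, 4 or 5 (0.33 to 0.41, adjusted p 0.064 to 0.093). Tnfrsf11a lost it without control replicate 2, 3 or 5 or knockdown replicate 4 or 5 (0.34 to 0.38, adjusted p 0.064 to 0.076), and Tnfsf9 without control replicate 1 or 3 or knockdown replicate 3 or 5 (0.36 to 0.42, adjusted p 0.072 to 0.082). Tnfrsf23 lost it without control replicate 5 or knockdown replicate 5 (-0.34, adjusted p 0.066 and 0.073), and Tnfrsf22 without control replicate 3 (0.33, adjusted p 0.053). The count of higher members fell to 5 without control replicate 3 and 6 without knockdown replicate 5, and the count of lower members to 3 without control replicate 5 or knockdown replicate 5. The count of all genes called fell too, from 5377 to 4318 without control replicate 3. It was 4250 without control replicate 5 and 4099 without knockdown replicate 5.

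Without both knockdown tumours 3 and 5, an alternative chosen after the data were seen that also leaves fewer samples, 6 members were higher and 4 lower, and 9 of these 10 were among the 15. Over all genes 3754 were called, against 5377 with all libraries. Those that passed included the 8 above and Tnfrsf23, and Tnfrsf10b was added (log2 0.28, adjusted p = 0.049). Lta (0.94), Tnfrsf11a (0.36), Tnfrsf12a (0.27), Tnfsf9 (0.29), Tnfrsf22 (0.21) and Tnfrsf14 (-0.41) did not pass, with adjusted p of 0.106 to 0.209. With all libraries Tnfrsf14, Tnfrsf22, Tnfsf9 and Tnfrsf12a had been at -0.76, 0.37, 0.46 and 0.41.

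Because leukocyte genes were higher in knockdown tumours, the fit was repeated with each library scaled to the summed counts of the 6 leukocyte genes, which asks for a change relative to leukocyte RNA. The setting moved the median of all genes to -0.52 and the share of higher genes among all calls from 52.4% to 2.91%. Fasl was then the 1 member that was higher (log2 1.08, adjusted p = 0.0022), and 9 were lower: Tnfsf8, Tnfsf12, Tnfsf18, Tnfrsf1a, Tnfrsf1b, Tnfrsf4, Tnfrsf14, Tnfrsf23 and Tnfrsf26. Laptm5 moved less than the other leukocyte genes (log2 -0.20, SE 0.25, adjusted p = 0.56), while Ptprc, Cd53, Cd48, Cd52 and Itgb2 rose by 0.70 to 1.14. With those 5 genes alone, an alternative chosen after the data were seen, the median of all genes was -0.97, Fasl was still the 1 higher member (log2 0.60, adjusted p = 0.036) and 24 were lower. Fasl lay above the median of all genes by more than any other member in either setting. This scale sets every gene against leukocyte RNA, also one that the cultured line expressed at a high level, such as Tnfrsf12a. Fas was at log2 0.01 (adjusted p = 0.97) with 6 genes and -0.42 (adjusted p = 0.043) with 5.

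**Figure D4:**
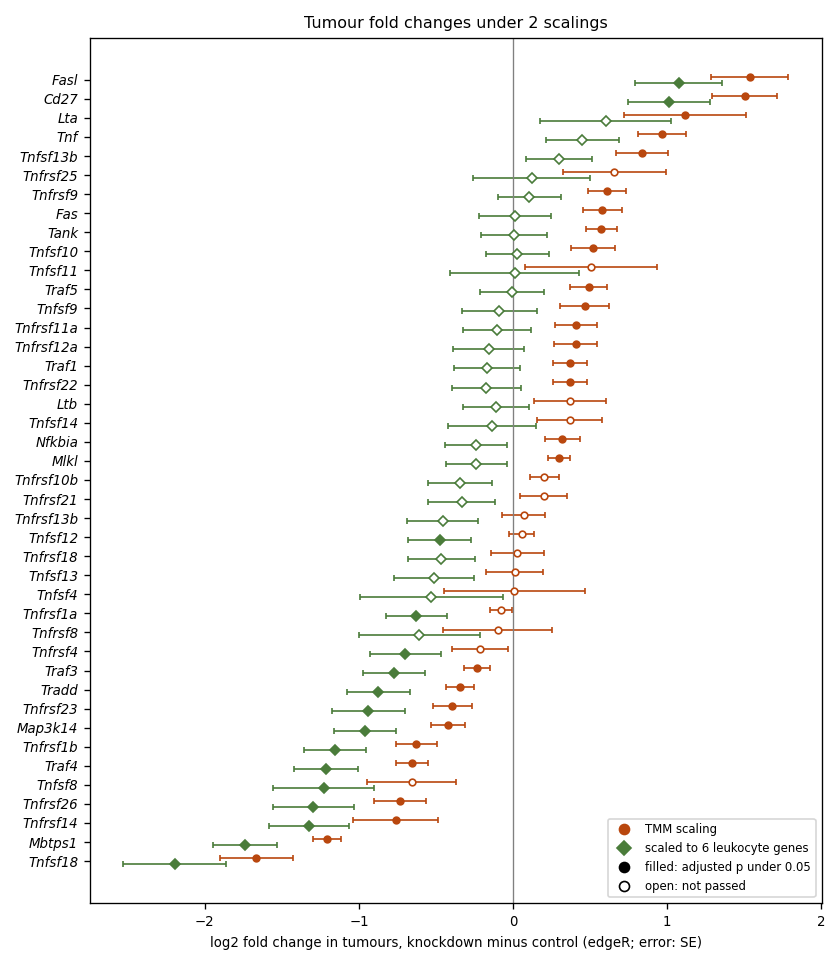
Log2 fold change in tumours (knockdown minus control, with its SE) of the members tested, with TMM scaling (circles) and scaled to the 6 leukocyte genes (diamonds). Filled symbols have an adjusted p under 0.05. Also drawn are Mbtps1 and the further family and signalling genes called in tumours, which are not members and are described below. The second scaling shifts every member to the left, and Fasl, at 1.54 and 1.08, is filled on the right in both.

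Whether the knockdown effect differed between tumours and culture was tested in 1 fit over all 16 libraries, on the 17 members that had counts in both parts and passed the filter over all libraries; these include Tnfrsf4, Tnfrsf18 and Tnfsf13, which were too low for the fit in cells alone. Tnfsf10 was the member that passed: its effect was smaller in tumours than in cells by 1.54 on the log2 scale (SE 0.49, adjusted p = 0.029). Of the 17, 0 were higher and 1 was lower, against 22.7% of all genes tested (12.7% higher and 9.95% lower), and the median was -0.18 against -0.01 for all genes. The Tnfsf10 call was lost without control cell replicate 1 or 3 or knockdown cell replicate 1 or 2 (adjusted p 0.064 to 0.101), and without both knockdown tumours 3 and 5 (-1.48, adjusted p = 0.052). Its level in control tumours, 11.4 ± 2.75 CPM (SD, n = 5), stood far above that in control cells, 0.341 ± 0.126 (SD, n = 3). Tnfrsf14 had the next largest difference, with log2 fold changes of 0.78 in cells and -0.76 in tumours and a difference of -1.52 (SE 0.58, adjusted p = 0.067).

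The family holds 11 further genes whose symbols the naming rule does not cover, and 7 of them are in the table. In tumours 2 of the 7 were higher and 0 lower, near the 20.1% and 18.3% of all genes tested. Tnf, the founding cytokine, was at 4.44, 3.03, 3.59, 3.82 and 3.25 CPM in controls and 5.65, 7.32, 5.97, 8.74 and 7.40 with knockdown, without overlap (log2 0.97, SE 0.15, adjusted p = 6.6e-04). Cd27, a costimulatory receptor of T and NK cells, was higher by 1.5 on the log2 scale (SE 0.21, adjusted p = 3.4e-04). Of the receptors of Tnf, Tnfrsf1b was lower and Tnfrsf1a did not pass. Scaled to the 6 leukocyte genes, Tnf lost its call (log2 0.45, adjusted p = 0.10) and Tnfrsf1a was lower (log2 -0.63, adjusted p = 0.0089). With 5 genes the values were -0.013 (adjusted p = 0.96) and -1.07 (adjusted p = 3.0e-08). Cd27 stayed higher, at log2 1.01 (adjusted p = 0.0022) with 6 genes and 0.53 (adjusted p = 0.039) with 5. In cells 0 of the 4 tested passed. In the interaction 0 of 4 were higher and 1 was lower, against 12.7% and 9.95% of all genes tested, which is no result about these genes. The lower gene was Relt (-0.66, SE 0.22, adjusted p = 0.038). Its call was lost in 10 of the 16 fits that left out 1 library (adjusted p 0.054 to 0.115). It was also lost without both knockdown tumours 3 and 5 (-0.59, adjusted p = 0.081).

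Of 30 genes that carry the signal inside the cell, 29 were tested in cells, where 4 were higher and 0 lower, against 3.76% and 5.57% of all genes tested. Nfkbia, the NF-kappa-B inhibitor, rose by 0.56 on the log2 scale (SE 0.10, adjusted p = 0.0051), and Bid, a link from caspases to mitochondria, by 0.42. Map3k14, the kinase of the non-canonical NF-kappa-B route, rose by 0.38 and the adaptor Traf4 by 0.36. In tumours 5 of 30 were higher and 4 lower, with a median log2 fold change of -0.03; against the 20.1% higher and 18.3% lower of all genes tested, these counts are not above the background and say nothing about the list as a whole. The higher genes were Tank (0.57), Traf5 (0.49), Traf1 (0.37), Nfkbia (0.32) and Mlkl, the executor of necroptosis (0.30). The lower ones were Traf4 (-0.65), Map3k14 (-0.42), Tradd (-0.34), the adaptor of Tnfrsf1a, and Traf3 (-0.23). Traf4 and Map3k14, higher in cells and lower in tumours, differed between the settings by -0.99 (SE 0.16, adjusted p = 4.1e-04) and -0.78 (SE 0.17, adjusted p = 0.0035). Bid (-0.45, adjusted p = 0.016) was also lower in that test, and Mlkl (0.57, adjusted p = 0.0058) and Tank (0.55, adjusted p = 0.016) were higher. Of the 29 listed genes tested there, 2 were higher and 3 lower. Among all genes tested 12.7% were higher and 9.95% lower, so these counts are no result about the list. Calls lost when 1 library was left out were Bid, Map3k14 and Traf4 in cells, Nfkbia, Traf1 and Traf3 in tumours, and Bid and Tank in the interaction (adjusted p at most 0.202, for Traf4 in cells). Without both knockdown tumours 3 and 5, Traf1, Traf3 and Traf5 did not pass in tumours (adjusted p 0.056 to 0.106).

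In the pooled screen, guides against 23 of the 32 members were counted in tumours of C57BL/6 and Rag1-KO hosts. With 1 library per host there is no replicate check and no test. The libraries held 27142741 and 19114273 reads, and 18108 of 18146 guides had at least 20 reads. A guide's value is the log2 ratio of its CPM in C57BL/6 to that in Rag1-KO hosts with 1 CPM added, and a gene's value is the median over its guides. Guides of 1 gene share their target and are not replicates of the hosts. The median over the 23 members was 0.31, and that over all 4529 genes 0.12; 15 of the 23 lay above the latter. Beyond a 2-fold ratio, 3 members were higher in C57BL/6 hosts, against 3.55% of all genes, and 0 were higher in Rag1-KO hosts, against 1.83%.

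Tnfrsf1b, lower in the knockdown tumours, had the highest median of the members, 1.52, above 99.7% of genes. Its 4 guides had 2448, 1955, 2137 and 9411 reads in the C57BL/6 library and 1205, 895, 246 and 1221 in the Rag1-KO library. All 4 were relatively more frequent in C57BL/6 hosts, the last 2 with the larger ratios. Fas followed at 1.36 over its 3 counted guides, with 1425, 671 and 984 reads against 379, 169 and 458. The next, Tnfsf11, had a median of 1.08 with 1 of its 4 guides at -0.94, in the other direction. At the other end lay Tnfrsf11b at -0.82 and Tnfsf8 at -0.80, and Tnfrsf1a (0.01) and Fasl (-0.16) lay nearer to the median of all genes. The tumour cells were the cells that carried the guides, and Tnfsf11, Tnfsf8, Tnfrsf11b and Fasl were listed at 0 in the cultured line. So were Tnfrsf11a, Tnfrsf21, Tnfrsf8, Tnfsf14, Lta, Tnfrsf25, Tnfsf15, Tnfsf18 and Tnfrsf13b, with guide medians from 0.81 for Tnfrsf11a to -0.21 for Tnfrsf13b. These genes enter the median over the members and the count above the median of all genes.

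**Figure D5:**
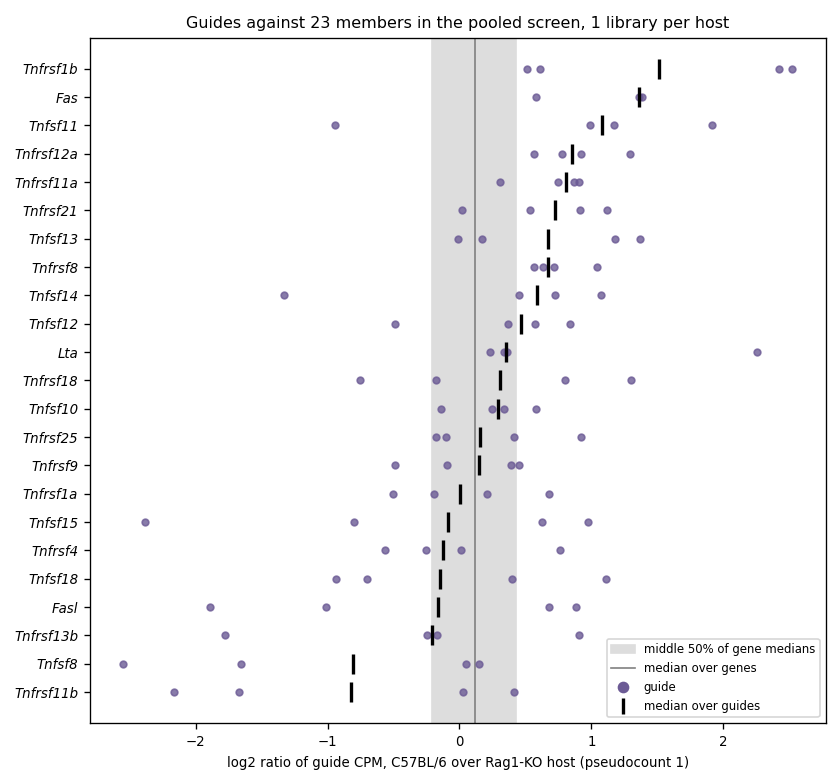
Log2 ratio of guide CPM, C57BL/6 over Rag1-KO hosts, for each guide (points) and the median per gene (bars) of the 23 members with guides; the grey band is the middle 50% of gene medians. Tnfrsf1b (1.52), Fas (1.36) and Tnfsf11 (1.08) lie farthest to the right and Tnfrsf11b (-0.82) and Tnfsf8 (-0.80) farthest to the left.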

How the data were processed

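The authors deposited 1 table of raw read counts per gene symbol for 16 RNA libraries and 1 table of read counts per guide for 2 screen libraries. Per the submitters' processing notes, the tools named are STAR 2.7.1a and HTSeq 0.13.5, besides others (FastQC 0.11.9, cutadapt 1.18, Cufflinks 0.17.3, SAMtools 1.3.1), whose roles are not stated. The notes name the build hg38, while 95.9% of the symbols are mouse symbols of GENCODE M21; the sources used here give no strand setting. Without strand, reads of a gene and an antisense partner cannot be told apart.

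Counts were tested with edgeR 4.0.16 in R 4.3.3 (TMM, filterByExpr, robust quasi-likelihood F test, two-sided, Benjamini-Hochberg over all genes tested, threshold 0.05), separately in cells and tumours, and over all 16 libraries for the interaction. The scripts were tested on simulated data. Each SE was taken as the size of the log2 fold change over the square root of F. CPM used library totals, and levels per length used the union of exons of GENCODE M21. A missing filter, a stricter filter (1 CPM and 10 counts), DESeq2 1.42.0, other scalings and a replicate block were tried. Separate fits without the block left out each library in turn, or both knockdown tumours 3 and 5. The labels name no batch. Shared sequence was measured as 50-base stretches found in transcripts of another gene.

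All members are accounted for. Those past the threshold, the 3 highest per length and the genes of the lists with the smallest p (up to 4 in each direction) are named by rule; others were named after their values were seen. The members and lists were chosen with earlier results of these data known.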

Additional observations from a re-analysis of the deposited data

Results flagged for a closer look

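Tnfrsf11b in control tumour replicate 3 was 1.90 CPM, far from the 0.229 to 0.357 CPM of the other 4 control tumours. It was the 1 such value among the 64 groups of 5 tumours over all members. Chance gives about 1 in 20 such groups, so 1 in 64 is not more than chance gives. The gene was not tested between groups.

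The effect of knockdown on Tnfsf10 differed between the settings by -1.54 on the log2 scale (tumours minus cells, interaction term, adjusted p = 0.029), with log2 fold changes of 2.07 in cells and 0.52 in tumours. It was -1.48 (adjusted p = 0.052) without both knockdown tumours 3 and 5. The cell values rest on 0.211 to 2.08 CPM.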

How the results depend on the processing

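The counts of members called in tumours (10 higher and 5 lower) were the same 15 genes with DESeq2, DESeq2's size factors and library totals; without a filter 11 and 5 were called and with the stricter filter 9 and 5. In cells the 1 higher member became 0 with the stricter filter, which left Tnfsf10 untested, and 0 to 1 when 1 library was left out. When 1 tumour library was left out, 5 to 10 members were higher and 3 to 5 lower. The interaction gave 1 lower member, 2 with DESeq2 and 0 to 3 when 1 library was left out. Over all genes, 290 to 1530 were called in cells when 1 library was left out (1111 with all). The same counts were 4069 to 5833 in tumours (5377 with all) and 1667 to 3359 in the interaction (2850 with all). Depth limits the members under about 1 CPM, and 0s in cells may stand for rows below a minimum.

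The replicate numbers are shared between groups, but same-numbered libraries did not deviate together: correlations of deviations were -0.363 to -0.011 over 3 pairs of cell libraries and -0.357 to 0.238 over 5 pairs of tumours, and 0 of 6 and 1 of 10 libraries correlated best with their own number. With the replicate block, 508 genes were called in cells, with 1 member higher and 0 lower. In tumours the replicate block gave 8 members higher and 4 lower, without Lta, Tnfsf9 and Tnfrsf23, and in the interaction 2 lower, Tnfsf10 and Tnfrsf14. Over all genes the block called 4746 in tumours and 2177 in the interaction.

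Scaled to leukocyte counts, 1 member was higher and 9 lower in tumours, and 209 and 6977 genes overall. Log2 fold changes that turned negative were Ltb -0.11, Tnfrsf10b -0.34, Tnfrsf11a -0.10, Tnfrsf12a -0.16, Tnfrsf13b -0.46, Tnfrsf18 -0.47, Tnfrsf21 -0.33, Tnfrsf22 -0.17, Tnfsf12 -0.48, Tnfsf13 -0.51, Tnfsf14 -0.13, Tnfsf4 -0.53, Tnfsf9 -0.089, Mlkl -0.24, Traf1 -0.17, Traf5 -0.0084 and Nfkbia -0.24. Scaled to 5 leukocyte genes, 1 was higher and 24 lower, and 82 and 12181 genes overall. There the values that turned negative were Fas -0.42, Ltb -0.56, Tnfrsf10b -0.78, Tnfrsf11a -0.57, Tnfrsf12a -0.61, Tnfrsf13b -0.90, Tnfrsf18 -0.93, Tnfrsf21 -0.77, Tnfrsf22 -0.62, Tnfrsf25 -0.36, Tnfrsf9 -0.36, Tnfsf10 -0.43, Tnfsf11 -0.49, Tnfsf12 -0.93, Tnfsf13 -0.98, Tnfsf13b -0.14, Tnfsf14 -0.58, Tnfsf4 -0.97, Tnfsf9 -0.54, Tnf -0.013, Mlkl -0.68, Traf1 -0.62, Traf5 -0.48, Tank -0.42 and Nfkbia -0.67. Both settings lower every gene by construction when leukocyte genes are higher. With knockdown tumours 3 and 5 both left out, 6 members were higher and 4 lower in tumours, and 3754 genes were called overall. In the interaction 0 members were then lower, and 2312 genes were called overall. In tumours Tnfrsf8 was then at 0.090 and Tnfsf13 at -0.24, and in the interaction Tnfrsf12a at -0.046 and Tnfrsf22 at -0.018. With library totals Tnfsf13 was at -0.0069 and Tnfsf4 at -0.0041 in tumours.

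Values that changed sign when 1 library was left out had passed no test; the cause was not tested. In cells Tnfrsf1b ran from -0.29 to 0.055 and Tnfsf9 from -0.13 to 0.054. In tumours Tnfsf4 ran from -0.22 to 0.40, Tnfrsf18 from -0.091 to 0.18, Tnfsf13 from -0.090 to 0.10 and Tnfrsf8 from -0.40 to 0.096. In the interaction Tnfsf13 ran from -0.69 to 0.31, Tnfrsf18 from -0.84 to 0.47 and Tnfrsf12a from -0.023 to 0.31. The median over members in the screen moved from 0.31 to 0.26 with 5 CPM added and to 0.19 when centred on the median guide.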
